A study of Mus musculus with 20 samples.

Results

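Genes of autophagy and of the lysosome were followed in mouse preimplantation embryos after knockdown of P300. The genes were chosen by symbol alone: autophagy-related genes (Atg followed by a digit), genes of the ubiquitin-like Atg8 proteins (Gabarap and Map1lc3), subunits of the vacuolar proton pump (Atp6v), cathepsins (Cts followed by 1 letter), and Lamp1 and Lamp2. The count table has 25208 rows, of which 67 matched, and 56 of these passed the filter on low counts, among 16603 genes tested. The 56 comprise 18 Atg genes, 5 Atg8 genes, 10 subunits of the V1 sector and 9 of the V0 sector of the pump, 12 cathepsins and both Lamp genes. The 20 libraries were made with Smart-seq2, a protocol for small amounts of RNA, from total RNA of embryos grown in KSOM medium from the zygote on, with 2 libraries in each of 10 groups. Embryos with P300 knockdown by siRNA were compared with control embryos labelled WT at 4 stages: the late 2-cell stage, the 4-cell stage, and an early and a late 8-cell stage. At the late 8-cell stage, 2 more groups carried the knockdown and a treatment labelled I1394G rescue or NaCr rescue. The labels spell out neither name, and the title of the series speaks of P300 and histone crotonylation. They also do not say whether the libraries of a group came from separate cultures, so p-values measure the spread between these libraries, which may be technical.

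Autophagy encloses cytoplasm in a double membrane, the autophagosome, which then fuses with a lysosome. A kinase complex with Atg13 and a lipid kinase complex with Atg14 start the process, and Atg2a and Atg9a bring lipid into the growing membrane. The enzymes Atg7 and Atg3 attach the Atg8 proteins to that membrane after proteases of the Atg4 family have trimmed them. The vacuolar ATPase acidifies the lysosome by coupling ATP hydrolysis in its V1 sector to proton flow through its membrane sector V0, the cathepsins digest the contents, and the Lamp glycoproteins line the membrane. In the mouse, autophagy is switched on soon after fertilisation, and embryos without maternal and zygotic Atg5 stop developing before the blastocyst stage. P300, encoded by Ep300, is a transcriptional coactivator that acetylates histones and other proteins.

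Many lysosomal genes carry the letters CACGTG near their start, the core of the site bound by the transcription factor TFEB and its relatives. In the RefSeq promoter table, which spans 250 bases before to 50 bases after each start on GRCm38.p6, 53 of the 67 genes were found. CACGTG, which reads the same on both strands, was present in 13 of them (24.5%), against 8.09% of the 27025 genes in the table. The longer TCACGTG, which contains CACGTG and was searched on both strands, was present in 10 of the 53 (18.9%), against 4.29% of all genes in the table. The stretches below hold the motif upstream of the start. They are shown because they belong to genes of each role described here: lipidation enzymes, both sectors of the pump, cathepsins and a membrane protein. Capitals mark CACGTG.
Atg3, chr16:45158700-45158798, plus strand: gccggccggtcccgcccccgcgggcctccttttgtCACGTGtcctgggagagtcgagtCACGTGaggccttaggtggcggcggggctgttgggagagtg
Atg7, chr6:114670929-114671004, plus strand: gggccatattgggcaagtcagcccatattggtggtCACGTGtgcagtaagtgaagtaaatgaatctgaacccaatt
Atp6v1a, chr16:44139350-44139425, minus strand: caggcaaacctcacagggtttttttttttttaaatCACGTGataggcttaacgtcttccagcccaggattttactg
Atp6v0b, chr4:117887330-117887400, minus strand: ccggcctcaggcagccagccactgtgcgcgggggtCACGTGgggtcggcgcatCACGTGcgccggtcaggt
Ctsa, chr2:164833726-164833772, plus strand: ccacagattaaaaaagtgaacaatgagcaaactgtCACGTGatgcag
Ctsd, chr7:142387885-142388077, minus strand: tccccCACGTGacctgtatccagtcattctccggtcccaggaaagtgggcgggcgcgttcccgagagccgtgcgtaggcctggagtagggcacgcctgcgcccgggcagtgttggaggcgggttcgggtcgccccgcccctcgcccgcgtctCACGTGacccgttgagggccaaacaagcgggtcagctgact
Lamp1, chr8:13159065-13159160, plus strand: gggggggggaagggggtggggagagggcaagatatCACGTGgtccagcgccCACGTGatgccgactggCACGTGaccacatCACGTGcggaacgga

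Total counts were lowest in siRNA late 8-cell replicate 1, at 3.2 M, and highest at 24.8 M. Ep300 had 22.6 and 29.9 CPM (counts scaled to the size of the library) in late 2-cell siRNA libraries, against 86.1 and 83.8 in controls, and it was lower in siRNA libraries at the 4-cell stage (log2 fold change ± SE -2.15 ± 0.37, adjusted p = 0.00128) and the early 8-cell stage (-2.15 ± 0.37, adjusted p = 0.000819). In late 8-cell embryos Ep300 had 14.8 and 16.2 CPM in I1394G, 11.6 and 12.6 in NaCr and 16.2 and 13.2 in siRNA libraries, against 22.0 and 15.2 CPM in controls. The siRNA target thus does not check the labels at the late 8-cell stage (-0.36 ± 0.37, adjusted p = 0.50), and "siRNA" there means the libraries labelled so. The 8 embryo markers were detected in every group, with summed levels of 5323 to 5354 CPM in siRNA and 10295 to 11997 CPM in control libraries at the early 8-cell stage. At the late 8-cell stage they summed to 7952 to 8280 CPM in I1394G, 9541 to 10251 in NaCr, 3505 to 4087 in siRNA and 8267 to 8827 CPM in control libraries. Normalization factors were 1.0 to 1.04 in siRNA and 0.864 to 0.930 in control libraries at the 4-cell stage, and 1.05 to 1.06 in siRNA and 0.864 to 0.866 in control libraries at the early 8-cell stage. Late 8-cell values were 0.917 to 0.927 in I1394G, 0.865 to 0.866 in NaCr, 1.18 to 1.21 in siRNA and 0.854 to 0.858 in control libraries, and their part in the results was not tested. Cumulus and granulosa markers summed to 22.4 to 73.4 CPM and sperm markers to at most 3.35 CPM in any library. Oocyte and maternal markers summed to 2648 to 2759 CPM in siRNA and 3675 to 3698 CPM in control libraries at the late 2-cell stage, and to 15.7 to 122 CPM in later libraries. Late 8-cell sums were 16.8 to 30.1 CPM in I1394G, 22.2 to 32.8 in NaCr, 26.8 to 33.4 in siRNA and 15.7 to 17.6 in control libraries. The part of these markers in the results was not tested either. In whole embryos, fewer cells of a type and less RNA per cell cannot be told apart.

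In control embryos most genes of the set were more abundant at the 4-cell than at the late 2-cell stage. Of 56 genes, 39 passed edgeR's quasi-likelihood test at an adjusted p under 0.05, 34 higher and 5 lower at the 4-cell stage, where 61.2% of all genes passed, 27.0% higher and 34.2% lower. Of the 44 members with a mean of at least 10 CPM over the libraries 37 passed (84.1%), 34 higher and 3 lower. Of all genes at that level 74.6% passed, 45.1% higher and 29.4% lower. The set's median log2 fold change was 1.39, against -0.40 over all genes. All 4 Atg8 genes that passed were higher. Gabarapl2, which encodes GATE-16, had 2144 and 1488 CPM at the 4-cell stage, against 94.6 and 138 at the late 2-cell stage. Map1lc3b, which encodes the LC3B protein, had 7184 and 4952 CPM at the 4-cell stage, against 395 and 461 at the late 2-cell stage. The libraries of the 2 stages did not overlap in either gene, with log2 fold changes of 3.97 ± 0.22, adjusted p = 1.25e-10, and 3.83 ± 0.24, adjusted p = 3.09e-10. Among cathepsins 6 passed, all higher. The largest change among them was in the carboxypeptidase gene Ctsz, with 687 and 843 CPM at the 4-cell stage, against 43.1 and 41.1 at the late 2-cell stage (4.18 ± 0.22, adjusted p = 6.53e-11). Ctsc (3.58 ± 0.20), the gene of dipeptidyl peptidase I, Ctsa (2.97 ± 0.19), Ctsl (2.51 ± 0.20) and the aspartic protease gene Ctsd (3.0 ± 0.26) rose too, as did the lipidation enzyme Atg3 (2.28 ± 0.20) and the pump subunit genes Atp6v0b (2.30 ± 0.19) and Atp6v1d (2.45 ± 0.22).

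Genes that fell between the late 2-cell and 4-cell stage included Atg5 (-1.09 ± 0.20, adjusted p = 0.000139), part of the complex that guides Atg8 attachment, and 4 pump subunits. The V0 subunit gene Atp6v0a2 had 18.7 and 23.3 CPM at the 4-cell stage, against 42.7 and 48.7 at the late 2-cell stage. Atp6v0d2 had 63 counts in the late 2-cell controls and 0 in every later group, at least 29.3-fold lower at the 4-cell stage, with the bound set at 3 counts over the group. Atp6v0e2 had 2 counts in 4-cell controls against 41 in late 2-cell controls, and Atp6v1b2 was also lower at the 4-cell stage (-0.71 ± 0.22, adjusted p = 0.0110; lost without control 4-cell replicate 2, 0.134, or late 2-cell replicate 1, 0.0784). Controls at the early 8-cell and 4-cell stage were not separated: 0 of 56 genes passed edgeR's test, 3 passed at an unadjusted p under 0.05, and DESeq2 also called 0, against 1.13% of all genes called by edgeR, 0.620% higher and 0.506% lower. With 1 library left out, control 4-cell replicate 1, the count became 1.

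Between the early and the late 8-cell stage the control embryos changed in both directions: 33 of 56 genes passed, 18 higher and 15 lower at the late stage, where 26.2% of all genes passed, 15.0% higher and 11.2% lower. Of the 44 members with a mean of at least 10 CPM 30 passed (68.2%), 16 higher and 14 lower. Of all genes at that level 38.3% passed, 20.7% higher and 17.6% lower. Pump subunits of the V1 sector were mostly higher late (7 higher, 2 lower), and cathepsins mostly lower (1 higher, 5 lower). Atp6v1h, the regulatory subunit of V1, had 168 and 213 CPM at the late and 44.9 and 42.2 CPM at the early 8-cell stage (2.13 ± 0.23, adjusted p = 9.52e-06). Lamp1 had 573 and 494 CPM late and 78.1 and 174 CPM early (2.08 ± 0.32, adjusted p = 0.000186), whereas Lamp2 moved the other way (-1.03 ± 0.25, adjusted p = 0.00530; adjusted p = 0.0759 without control early 8-cell replicate 1). Ctsb and Ctsl, both cysteine proteases, fell (-1.89 ± 0.18 and -1.92 ± 0.20), while Ctsd rose (1.83 ± 0.24). Atg3 fell most clearly among the Atg genes, with 73.9 and 60.8 CPM late and 337 and 389.6 CPM early (-2.43 ± 0.20, adjusted p = 1.10e-06), and Atg4b rose (1.36 ± 0.21).

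On a scale corrected for gene length (FPKM, deposited by the authors), Map1lc3b and Gabarapl2 led the set from the 4-cell stage on. In late 2-cell controls the pump subunit gene Atp6v0e stood higher, with 214 and 257 FPKM, against 183 and 213 FPKM for Map1lc3b. Map1lc3b ranked first among control groups at the 4-cell stage with 2109 FPKM and at the early 8-cell stage with 2267 FPKM, and Gabarapl2 ranked second at both with 1649 and 1893 FPKM. Gabarapl2 ranked first in each late 8-cell group, with 2359 FPKM in I1394G, 2687 in NaCr, 1399.6 in siRNA and 2865 FPKM in control embryos. Values of the early 8-cell controls come from replicate 1 alone, since the FPKM column of replicate 2 did not match its own count column and was left out of levels and shares in FPKM.

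At the late 2-cell stage no gene of the set separated siRNA from control embryos. edgeR called 0 of 56, 4 had an unadjusted p under 0.05, DESeq2 called 0, and 0.00602% of all genes were called (0.0122% of those with a mean of at least 10 CPM). Map1lc3b had 499 and 635 CPM in siRNA and 395 and 461 CPM in control libraries (0.41 ± 0.21), and Lamp2 had 144 and 180.5 CPM in siRNA and 116 and 125 CPM in control libraries (0.43 ± 0.25). Neither Ctsc (0.05 ± 0.18) nor Atg4b (-0.10 ± 0.21), which changed later, stood apart here. All 56 adjusted p-values were 1. A fit to the 4 late 2-cell libraries alone called 5, and limma on log2(FPKM + 1) called 2.

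**Figure D1:**
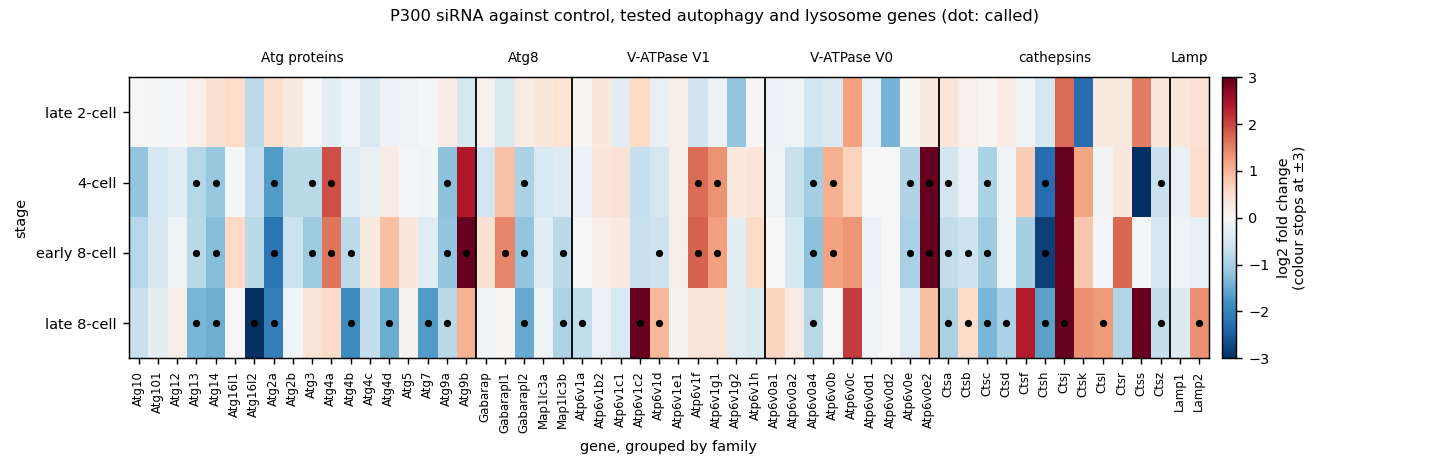
Heat map of the log2 fold change of P300 siRNA over control embryos for the 56 tested genes (columns, grouped by family) at 4 stages (rows), with the colour scale stopping at 3 in either direction and a dot where edgeR's adjusted p is under 0.05. The late 2-cell row has no dots, and 9 genes are lower with a dot at each of the 3 later stages.

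From the 4-cell stage on, embryos with P300 siRNA had less RNA of several genes that build the autophagosome and of several cathepsins. A few small pump subunits were higher at the 4-cell and early 8-cell stages and were not called at the late 8-cell stage. At the 4-cell stage 17 of 56 genes passed, 5 higher and 12 lower, where 15.0% of all genes passed, 7.77% higher and 7.25% lower. Most of the set is well expressed, and of the 8226 genes with a mean of at least 10 CPM 20.5% passed, 9.15% higher and 11.4% lower. Of the 44 set members above that level 16 passed (36.4%), 4 higher and 12 lower. The set's median log2 fold change was -0.18, against 0.00 over all genes. Among Atg genes 1 rose and 5 fell, among Atg8 genes 1 fell, among V1 subunits 2 rose, among V0 subunits 2 rose and 2 fell, and among cathepsins 4 fell. No Lamp gene passed: Lamp2 was at 0.52 ± 0.25 (adjusted p = 0.161).

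Among the genes of autophagosome initiation, Atg14, the subunit that directs the lipid kinase to autophagy, had 139.7 and 176 CPM in siRNA and 335 and 356 CPM in control libraries at the 4-cell stage. All siRNA values lay below all control values (-1.13 ± 0.19, adjusted p = 0.000905). Atg9a, the lipid scramblase carried on vesicles, had 63.9 and 52.3 CPM in siRNA and 136 and 138 CPM in control libraries (-1.24 ± 0.21, adjusted p = 0.000982). Atg2a, the lipid transfer protein that works with it, fell by 1.67 on the log2 scale (adjusted p = 0.00202). Atg13 (-0.84 ± 0.23) and the conjugating enzyme Atg3 (-0.81 ± 0.19) fell as well, while Atg4a, a minor member of the Atg4 proteases, rose (1.94 ± 0.52). Atg4b, which holds most of the FPKM of that family, was not called (-0.33 ± 0.21, adjusted p = 0.310). Of the Atg8 genes, Gabarapl2 had 1027 and 848 CPM in siRNA and 2144 and 1488 CPM in control libraries (-0.95 ± 0.20, adjusted p = 0.00466), whereas Map1lc3b was not called (-0.39 ± 0.21, adjusted p = 0.224).

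In the lysosome itself the aminopeptidase gene Ctsh had the smallest adjusted p of the set at the 4-cell stage, with 15.5 and 16.0 CPM in siRNA and 98.3 and 54.6 CPM in control libraries (-2.27 ± 0.30, adjusted p = 0.000147). Ctsc fell as well, with 1367 and 1329 CPM in siRNA and 2850.5 and 2371 CPM in control libraries (-0.95 ± 0.18, adjusted p = 0.00220), and so did Ctsz (-0.66 ± 0.20) and Ctsa (-0.54 ± 0.17). The pump genes split by subunit. Atp6v1g1, a subunit of the peripheral stalk, had 212 and 183 CPM in siRNA and 101 and 55.4 CPM in control libraries (1.34 ± 0.23, adjusted p = 0.00101). Atp6v0b, a subunit of the proton-carrying ring, had 427 and 446 CPM in siRNA and 247 and 169.6 CPM in control libraries (1.07 ± 0.19, adjusted p = 0.00131), and Atp6v1f of the rotor rose too (1.68 ± 0.38, adjusted p = 0.00680). Atp6v0e (-0.91 ± 0.18) and Atp6v0a4 (-1.02 ± 0.27) of V0 fell, and Atp6v1e1 of the peripheral stalk was not called (0.19 ± 0.19, adjusted p = 0.519). Atp6v0e2, a paralogue of Atp6v0e, had 54 counts in siRNA, all in replicate 2, against 2 in control libraries. With limma on log2(FPKM + 1), 5 genes rose and 6 fell, and a fit to the 4 libraries of this stage alone called 0. Leaving out 1 library at a time, the count of 17 fell to 11 without control replicate 2, and 9 of the 17 genes stayed called in all 4 fits. Without siRNA replicate 1 the calls of Atg13 (adjusted p = 0.0762), Atg4a (0.0530), Atp6v0a4 (0.0811), Ctsa (0.0900) and Ctsz (0.0561) were lost. Without siRNA replicate 2 those of Atg13 (0.0951), Atg3 (0.0625), Atp6v0a4 (0.0635), Ctsa (0.188) and Ctsz (0.162) were lost. Without control replicate 1 those of Atp6v0e2 (0.0583) and Ctsa (0.197) were lost. Without control replicate 2 those of Atg13 (0.171), Atg4a (0.113), Atp6v0a4 (0.0860), Atp6v0e2 (0.0860), Atp6v1f (0.0665) and Ctsz (0.189) were lost. Atp6v0e2 had no siRNA count left without siRNA replicate 2.

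At the early 8-cell stage much the same genes passed as at the 4-cell stage. Of 56 genes 22 passed, 7 higher and 15 lower, where 16.5% of all genes passed, 8.21% higher and 8.30% lower. Of the 44 members above 10 CPM 20 passed (45.5%), 5 higher and 15 lower, against 23.4% of all genes at that level, 9.88% higher and 13.5% lower. The set's median log2 fold change was -0.16, against 0.04 over all genes. Of the 12 genes that fell at the 4-cell stage 11 also fell here, and the 5 genes that rose at the 4-cell stage, Atg4a, Atp6v0b, Atp6v0e2, Atp6v1f and Atp6v1g1, all rose again. Ctsh had 12.5 and 16.1 CPM in siRNA and 88.0 and 112 CPM in control libraries (-2.81 ± 0.30, adjusted p = 1.58e-05). Atg2a had 17.3 and 13.8 CPM in siRNA and 55.5 and 87.7 CPM in control libraries (-2.20 ± 0.31, adjusted p = 0.000145), and Atg14 had 152 and 167 CPM in siRNA and 362 and 414 CPM in control libraries (-1.28 ± 0.19, adjusted p = 0.000202). In each of these genes the groups did not overlap.

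Both leading Atg8 genes were lower at the early 8-cell stage. Gabarapl2 had 982 and 865 CPM in siRNA and 2144 and 2024 CPM in control libraries (-1.17 ± 0.20, adjusted p = 0.000733), and Map1lc3b had 4127 and 3688 CPM in siRNA and 6708 and 6889 CPM in control libraries (-0.80 ± 0.21, adjusted p = 0.0150). Gabarapl1, a paralogue, rose (1.46 ± 0.36, adjusted p = 0.0108). Their protease Atg4b fell for the first time (-0.79 ± 0.21, adjusted p = 0.0153), as did Ctsb (-0.61 ± 0.18) and the rotor subunit gene Atp6v1d (-0.62 ± 0.20). Atp6v0b had 377 and 447 CPM in siRNA and 172 and 182 CPM in control libraries (1.22 ± 0.19, adjusted p = 0.000287), again higher with the knockdown. Atp6v0e2 had 101 counts in siRNA and 0 in control libraries, at least 33.1-fold higher with the bound set at 3 counts over the group, and Atg9b, a paralogue of Atg9a, had 54 counts in siRNA and 3 in control libraries. Lamp2 was not called (-0.22 ± 0.24, adjusted p = 0.592). With limma on log2(FPKM + 1), once the mismatched FPKM column described above was left out, 5 genes rose and 6 fell. With 1 library left out at a time, 13 of the 22 genes stayed called in all 4 fits. Without siRNA replicate 1 the calls of Atg13 (adjusted p = 0.0854), Atg4a (0.167), Atg4b (0.135), Atp6v1d (0.276), Ctsb (0.108) and Gabarapl1 (0.0642) were lost. Without siRNA replicate 2 those of Atg13 (0.119), Atg4a (0.0608), Atp6v1d (0.0675), Ctsa (0.103), Ctsb (0.0980) and Map1lc3b (0.0976) were lost. Without control replicate 1 those of Atg4b (0.108) and Atp6v1d (0.135) were lost. Without control replicate 2 those of Atg13 (0.126), Atg4a (0.286), Atp6v1d (0.126), Atp6v1f (0.0578), Ctsb (0.206), Gabarapl1 (0.140) and Map1lc3b (0.0761) were lost.

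**Figure D2:**
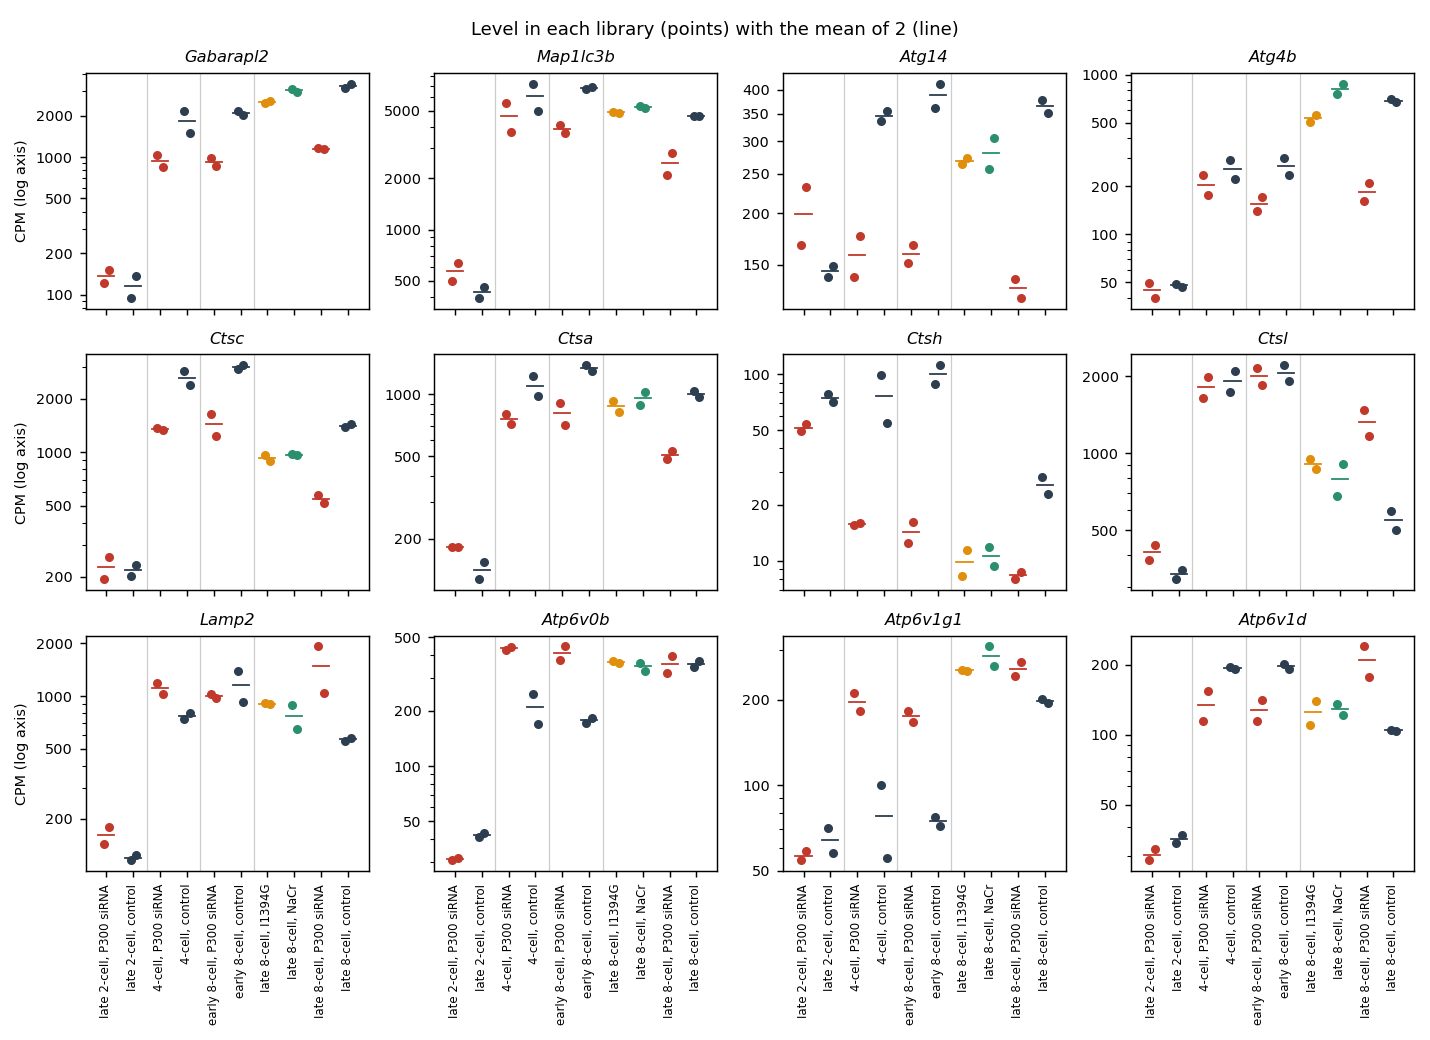
CPM on a log axis for 12 genes in all 20 libraries, with groups from the late 2-cell to the late 8-cell stage, points for libraries and a line at the mean of the 2 libraries of a group. Gabarapl2, Atg14, Ctsc and Ctsh lie lower in siRNA than in control embryos from the 4-cell stage on, and Lamp2 and Ctsl lie higher in siRNA embryos at the late 8-cell stage.

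At the late 8-cell stage several autophagy genes and cathepsins fell, and with the main scaling fewer genes of the set rose than fell. Of 56 genes 23 passed, 6 higher and 17 lower, where 28.0% of all genes passed, 13.6% higher and 14.3% lower. Of the 44 members above 10 CPM 21 passed (47.7%), 4 higher and 17 lower, against 37.9% of all genes at that level, 12.5% higher and 25.4% lower. The set's median log2 fold change was -0.13, against 0.06 over all genes. All 8 Atg genes that passed were lower. Among cathepsins 3 rose and 5 fell, among V1 subunits 2 rose and 1 fell, and Lamp2 rose. The balance of directions depended on the scaling: with DESeq2 size factors within edgeR, 9 genes rose and 15 fell, while the median of all genes stood at 0.20. With limma on log2(FPKM + 1), 12 rose and 8 fell, with the median of all genes at 0.22. Among all genes called, 48.8% were higher with the main scaling, 58.4% with DESeq2 size factors and 74.8% with FPKM. With 1 library left out at a time, 15 of the 23 genes stayed called in all 4 fits. Without siRNA replicate 1 the calls of Atg4d (adjusted p = 0.0868), Atg9a (0.0704), Ctsb (0.0937), Ctsd (0.0771), Ctsj (0.0976) and Ctsz (0.0804) were lost. Without siRNA replicate 2 those of Atp6v0a4 (0.287), Atp6v1a (0.240) and Ctsj (0.0779) were lost. Without control replicate 1 those of Atg9a (0.0677), Atp6v0a4 (0.139), Atp6v1a (0.0717), Ctsb (0.0548), Ctsj (0.178) and Ctsz (0.0694) were lost. Without control replicate 2 those of Atg4d (0.0506), Atp6v0a4 (0.0892), Atp6v1a (0.216), Ctsb (0.221), Ctsd (0.0555) and Ctsj (0.173) were lost. Atp6v1a was not called with DESeq2 size factors (adjusted p = 0.0999) or DESeq2 (0.0907), Atp6v0a4 not with DESeq2 size factors (0.0757), and Ctsj not with DESeq2 (0.124) or without the filter (0.0573).

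Atg4b, which trims the Atg8 proteins, had 161 and 209.7 CPM in siRNA and 707 and 674 CPM in control libraries at the late 8-cell stage, the smallest adjusted p of the set (-1.89 ± 0.22, adjusted p = 1.31e-05). Gabarapl2 had 1166 and 1136 CPM in siRNA and 3170.3 and 3394 CPM in control libraries (-1.51 ± 0.20, adjusted p = 5.40e-05), and Map1lc3b had 2091 and 2819 CPM in siRNA and 4662 and 4626 CPM in control libraries (-0.92 ± 0.21, adjusted p = 0.00403). The activating enzyme Atg7 had 43.3 and 46.2 CPM in siRNA and 144 and 146 CPM in control libraries (-1.70 ± 0.27, adjusted p = 0.000190). Atg4d, another protease of the Atg4 family, fell too, with 9.29 and 16.5 CPM in siRNA and 36.3 and 37.4 CPM in control libraries. That call was lost without siRNA replicate 1 or control replicate 2. Several further genes of this conjugation were not called. The conjugating enzyme Atg3 had 93.5 and 85.3 CPM in siRNA and 73.9 and 60.8 CPM in control libraries (0.41 ± 0.19, adjusted p = 0.116), and Atg12 (0.18 ± 0.19), Atg5 (0.08 ± 0.20) and Atg16l1 (-0.01 ± 0.23), which form the complex that guides the attachment, did not pass either. Atg16l2, a paralogue of the scaffold Atg16l1, had 1.59 and 6.53 CPM in siRNA and 52.3 and 53.9 CPM in control libraries (-3.54 ± 0.52, adjusted p = 0.000117). Upstream of them, Atg14 had 139 and 124 CPM in siRNA and 379 and 352 CPM in control libraries (-1.48 ± 0.19, adjusted p = 3.56e-05), and Atg13 (-1.36 ± 0.24), Atg2a (-2.07 ± 0.31) and Atg9a (-0.81 ± 0.21) were lower too.

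The cathepsins parted ways at the late 8-cell stage. Ctsc had 573 and 520.3 CPM in siRNA and 1378 and 1439.7 CPM in control libraries (-1.37 ± 0.18, adjusted p = 4.79e-05), and Ctsa (-0.98 ± 0.18), Ctsh (-1.60 ± 0.30), Ctsd (-0.94 ± 0.24) and Ctsz (-0.72 ± 0.20) also fell. Ctsl, by contrast, had 1473 and 1172 CPM in siRNA and 594 and 500.4 CPM in control libraries (1.27 ± 0.19, adjusted p = 0.000135). Ctsb had 431 and 389.6 CPM in siRNA and 300.5 and 252 CPM in control libraries (0.57 ± 0.18, adjusted p = 0.0236), and Ctsj, a cathepsin of the placenta with close copies nearby whose reads may be shared, had 13 counts in siRNA and 0 in control libraries (at least 7.55-fold higher). Lamp2 had 1914 and 1045 CPM in siRNA and 558 and 578 CPM in control libraries (1.38 ± 0.25, adjusted p = 0.000622). In the pump, the V1 subunit paralogue Atp6v1c2 had 10.1 and 12.3 CPM in siRNA and 0.821 and 0.552 CPM in control libraries (4.02 ± 0.54, adjusted p = 5.79e-05), Atp6v1d rose (1.0 ± 0.21), and the catalytic subunit gene Atp6v1a (-0.73 ± 0.25) and Atp6v0a4 (-0.83 ± 0.27) fell. Atp6v1e1 (0.08 ± 0.19, adjusted p = 0.804) and Atp6v0e (-0.35 ± 0.18, adjusted p = 0.150) were not called. Some late siRNA values lay near those of early 8-cell controls, which had 10.5 and 7.98 CPM for Atp6v1c2 and 202 and 191 for Atp6v1d. Others lay far from them, as early 8-cell controls had 2925 and 3082 CPM for Ctsc and 88.0 and 112 for Ctsh. Whether siRNA embryos lagged in stage was not tested.

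Because macrophages are rich in lysosomes, their markers were read beside these genes. In the macrophage list 8 of 9 genes were in the table, and it summed to 45.9 to 49.4 CPM in late 8-cell siRNA and 8.11 to 8.22 CPM in late 8-cell control libraries. Nearly all of this was Cd68, which encodes a lysosomal membrane protein, with 44.9 and 47.6 CPM in siRNA and 7.39 and 6.89 CPM in control libraries. In treated late 8-cell embryos Cd68 had 33.9 and 48.6 CPM in I1394G and 30.4 and 35.9 CPM in NaCr libraries, higher than in control in both (2.53 ± 0.44, adjusted p = 0.00411, for I1394G, and 2.21 ± 0.44, adjusted p = 0.0147, for NaCr). It was also higher in siRNA than in control embryos at the 4-cell (2.19 ± 0.45) and early 8-cell stage (1.49 ± 0.43). Adgre1 was at 0 in all 8 late 8-cell libraries, and Ptprc was at 0 in 7 of them and at 0.0408 CPM in siRNA replicate 2. Whether other cells had a part in the result was not tested.

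Across stages, 32 of 56 genes (57.1%) passed in at least 1 comparison of siRNA with control and 24 in none, against 40.4% of all genes that passed in at least 1. Of the 44 members above 10 CPM 28 did (63.6%), against 52.5% of all genes at that level. Lower at the 4-cell, early 8-cell and late 8-cell stages were 9 genes: Atg13, Atg14, Atg2a, Atg9a, Gabarapl2, Atp6v0a4, Ctsa, Ctsc and Ctsh. They make up 16.1% of the set, against 2.94% of all genes, and 20.5% of the 44 members above 10 CPM, against 5.53% of all genes at that level. With any 1 library left out, 5 of the 9, Atg14, Atg2a, Gabarapl2, Ctsc and Ctsh, stayed called at each of the 3 stages. No gene of the set was higher at both 8-cell stages, but only 3.36% of all genes were, so the absence does not set the 56 apart. Called in opposite directions at the 2 stages (0.476% of all genes) were Atp6v1d and Ctsb. Atp6v1d had 115 and 142 CPM in siRNA and 202 and 191 CPM in control libraries early, and 240.0 and 178 CPM in siRNA and 105 and 104 CPM in control libraries late. Ctsb had 668 and 672 CPM in siRNA and 918 and 1133 CPM in control libraries early, and 431 and 389.6 CPM in siRNA and 300.5 and 252 CPM in control libraries late. Both early calls were weak: that of Atp6v1d was lost without any 1 of the 4 libraries (adjusted p = 0.0675 to 0.276), and that of Ctsb without 3 of them (0.098 to 0.206), while with limma on log2(FPKM + 1) the early difference of Ctsb was 0.02. A joint test of whether the siRNA effect differed between the 4 stages passed for 25 of 56 genes, against 16.3% of all genes. Of the 44 members above 10 CPM 23 passed it (52.3%), against 24.9% of all genes at that level. The smallest adjusted p-values of this test were those of Atg14 (0.000728), Atp6v0b (0.00145), Atp6v1c2 (0.00145) and Atg2a (0.00197). Without control late 8-cell replicate 2 the count was 15.

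**Figure D3:**
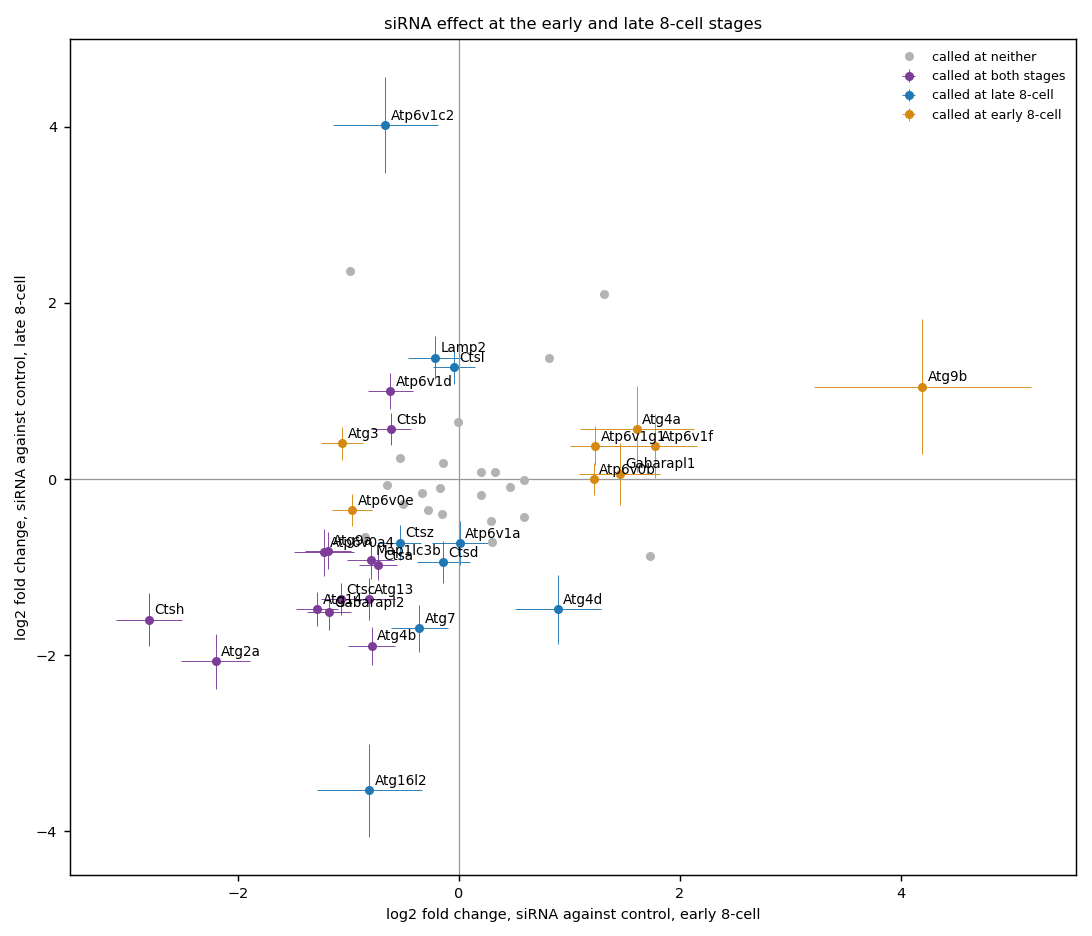
Log2 fold change of P300 siRNA over control at the early 8-cell stage (horizontal axis) and the late 8-cell stage (vertical axis), with SE bars, for 52 genes (4 with no counts in a group are left out), coloured by the stages at which they were called. Ctsh, Atg2a, Atg14, Ctsc and Gabarapl2 lie below 0 on both axes, and Ctsb and Atp6v1d lie below 0 early and above 0 late.

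In late 8-cell embryos that carried the knockdown and a rescue treatment, autophagy genes and cathepsins that siRNA had lowered were mostly higher than with the knockdown alone. Against siRNA embryos, 15 of 56 genes passed in I1394G embryos, 13 higher and 2 lower (10.8% of all genes passed, 6.19% higher and 4.58% lower). In NaCr embryos 19 passed, 15 higher and 4 lower (15.3% of all genes, 8.77% higher and 6.57% lower). All 13 genes that were higher in I1394G embryos, and all but Atp6v0e of the 15 in NaCr embryos, were among the 17 that siRNA had lowered against control. The same overlap over all genes was not computed, so it cannot be called a trait of this set. Of the 44 members above 10 CPM, 14 passed in I1394G (31.8%, against 18.8% of all genes at that level) and 18 in NaCr embryos (40.9%, against 25.9%). These comparisons use the same siRNA libraries as the comparison of siRNA with control, so a value that strayed in the siRNA libraries moves both. The I1394G count was 5 without I1394G replicate 1 and 7 without I1394G replicate 2 or siRNA replicate 1. For NaCr it was 11 without NaCr replicate 2 and 12 without siRNA replicate 1. With DESeq2 size factors the I1394G genes split into 13 higher and 5 lower, and the NaCr genes into 14 higher and 4 lower. With limma on log2(FPKM + 1) the I1394G genes split into 5 higher and 5 lower, and the NaCr genes into 6 higher and 9 lower.

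Atg4b had 506 and 561 CPM in I1394G and 756 and 878 CPM in NaCr embryos, against 161 and 209.7 in siRNA embryos. The treated groups did not overlap the siRNA group, with log2 fold changes over siRNA of 1.52 ± 0.21, adjusted p = 0.000599, for I1394G, and 2.14 ± 0.22, adjusted p = 3.87e-05, for NaCr. Gabarapl2 had 2481 and 2539.6 CPM in I1394G and 3128 and 2961 CPM in NaCr embryos, above the siRNA libraries in both (1.13 ± 0.20 in I1394G and 1.40 ± 0.20 in NaCr). Map1lc3b had 4894 and 4865 CPM in I1394G and 5313 and 5204 CPM in NaCr embryos (0.99 ± 0.21 in I1394G and 1.10 ± 0.21 in NaCr, over siRNA). Its means came to 105% of the control mean in I1394G, 113% in NaCr and 52.9% in siRNA embryos. Atg7 (1.49 ± 0.26 in I1394G and 1.72 ± 0.27 in NaCr) and Atg14 (1.03 ± 0.19 in I1394G and 1.10 ± 0.19 in NaCr) were higher than in siRNA embryos too. Atg16l2, with 19.7 and 18.2 CPM in I1394G and 32.0 and 19.2 CPM in NaCr embryos, averaged 35.6% of the control mean in I1394G, 48.1% in NaCr and 7.65% in siRNA embryos.

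Among cathepsins, Ctsa, Ctsc, Ctsd and Ctsz were higher than in siRNA embryos in both treated groups. Ctsc had 959.8 and 891 CPM in I1394G and 972 and 964 CPM in NaCr embryos, which placed the means at 65.7% of control in I1394G, 68.7% in NaCr and 38.8% in siRNA embryos. Of the genes raised by siRNA, Ctsl was lower than in siRNA embryos in NaCr embryos (-0.74 ± 0.19, adjusted p = 0.0139) and Lamp2 likewise (-0.94 ± 0.25, adjusted p = 0.0153). In I1394G embryos Lamp2 was not called against siRNA (-0.71 ± 0.25, adjusted p = 0.0708). Atp6v1d (-0.74 ± 0.20 in I1394G, -0.69 ± 0.21 in NaCr) and Atp6v1c2 (-1.74 ± 0.48 in I1394G, -2.38 ± 0.51 in NaCr) were lower than in siRNA embryos in both treated groups. With 1 library left out at a time, 4 of the 15 I1394G genes, Atg14, Atg4b, Atg7 and Gabarapl2, stayed called in all 4 fits. Without I1394G replicate 1 the calls of Atg13 (adjusted p = 0.133), Atg16l2 (0.0769), Atg2a (0.0609), Atg9a (0.151), Atp6v1c2 (0.0863), Atp6v1d (0.262), Ctsa (0.0958), Ctsc (0.0961), Ctsd (0.0741) and Ctsz (0.101) were lost. Without I1394G replicate 2 those of Atg13 (0.0915), Atg16l2 (0.0634), Atg2a (0.156), Atg9a (0.0930), Atp6v1c2 (0.254), Atp6v1d (0.0768), Ctsc (0.0566) and Ctsd (0.0934) were lost. Without siRNA replicate 1 those of Atg16l2 (0.105), Atg2a (0.153), Atg9a (0.156), Atp6v1c2 (0.0663), Atp6v1d (0.216), Ctsa (0.0543), Ctsd (0.134), Ctsz (0.0885) and Map1lc3b (0.0685) were lost. Without siRNA replicate 2 those of Atg13 (0.159) and Atp6v1c2 (0.0997) were lost.

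Of the 19 NaCr genes 9 stayed called against siRNA in all 4 fits: Atg14, Atg16l2, Atg4b, Atg7, Gabarapl2, Map1lc3b, Atp6v0e, Ctsa and Ctsc. Without NaCr replicate 1 the calls of Atg2a (adjusted p = 0.0674), Atp6v1d (0.0948), Ctsd (0.0680) and Ctsl (0.174) were lost. Without NaCr replicate 2 those of Atg2a (0.0730), Atg4d (0.116), Atg9a (0.149), Atp6v1c2 (0.0612), Atp6v1d (0.215), Ctsd (0.274), Ctsz (0.295) and Lamp2 (0.192) were lost. Without siRNA replicate 1 those of Atg2a (0.128), Atg4d (0.129), Atg9a (0.133), Atp6v1d (0.222), Ctsd (0.265), Ctsl (0.107), Ctsz (0.156) and Lamp2 (0.262) were lost. Without siRNA replicate 2 that of Atg13 (0.0534) was lost. At the late 8-cell stage cumulus and granulosa markers, 10 genes, summed to 54.9 to 64.8 CPM in I1394G, 48.1 to 71.3 in NaCr, 27.6 to 40.8 in siRNA and 22.4 to 30.5 CPM in control libraries. Most of it was Amhr2, an anti-Müllerian hormone receptor gene, which was higher in I1394G (1.27 ± 0.26, adjusted p = 0.00588) and NaCr (1.28 ± 0.27, adjusted p = 0.00356) than in siRNA embryos. It was also higher than in control embryos in both (1.14 ± 0.26, adjusted p = 0.0222, for I1394G, and 1.15 ± 0.26, adjusted p = 0.0329, for NaCr). Tnfaip6, of the same list, went the other way. It was at 0 in control embryos and higher in siRNA embryos (edgeR adjusted p = 0.000964). Compared with siRNA embryos it was lower in I1394G (-3.78 ± 1.13, adjusted p = 0.0451) and NaCr (-4.59 ± 1.23, adjusted p = 0.0202). Of the 10 markers 9 had a count in I1394G, 6 in NaCr, 8 in siRNA and 3 in control embryos, and Has2 was at 0 in I1394G, NaCr and control embryos. The part of these markers in the results was not tested.

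The comparison with control does not set any group against the siRNA libraries, but these entered the filter, scaling and spread of the fit. In that fit to all 20 libraries few genes differed. In I1394G embryos 4 of 56 genes passed, 3 higher and 1 lower (3.17% of all genes passed, 1.99% higher and 1.18% lower), and in NaCr embryos 2 passed, 1 higher and 1 lower (1.57% of all genes passed, 1.07% higher). Ctsh stayed low in both, with 8.32 and 11.4 CPM in I1394G and 11.9 and 9.33 CPM in NaCr embryos, against 28.1 and 22.9 CPM in controls (-1.37 ± 0.29, adjusted p = 0.0138, for I1394G, and -1.26 ± 0.29, adjusted p = 0.0346, for NaCr). Ctsb stayed high in both, with 505 and 504 CPM in I1394G and 423 and 497 CPM in NaCr embryos, against 300.5 and 252 CPM in controls (0.87 ± 0.18, adjusted p = 0.0120, for I1394G, and 0.74 ± 0.18, adjusted p = 0.0431, for NaCr). In I1394G embryos Ctsl (0.73 ± 0.19, adjusted p = 0.0429) and Atp6v1c2 (2.28 ± 0.52, adjusted p = 0.0230) were also higher than in control. Each of these calls of Ctsb, Ctsh and Ctsl was lost when any 1 of the 4 libraries compared was left out, that of Atp6v1c2 in 3 of the 4 fits (adjusted p = 0.155 to 0.278), and the counts then were 0 to 1 for I1394G and 0 for NaCr. Fits to the 4 libraries compared alone called 20 genes in I1394G and 14 in NaCr embryos. I1394G and NaCr embryos were not separated from each other: edgeR called 0 of 56, 1 had an unadjusted p under 0.05, DESeq2 called 0, and 0% of all genes were called.

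Of the 17 genes lowered by siRNA at the late 8-cell stage, the I1394G mean lay between the siRNA and control means for 14 and above the control mean for 3. The NaCr mean lay between them for 13 and above control for 4. Of the 6 genes raised by siRNA, both treated means lay between siRNA and control for 5, counting Ctsj, which was at the control value of 0 in both. Ctsb was the exception, at 183% of control in I1394G, 167% in NaCr and 148% in siRNA embryos. Ctsh lay between the means at 38.7% in I1394G, 41.6% in NaCr and 32.7% in siRNA embryos. All these genes were chosen by the gap between the same siRNA and control libraries. That choice by itself favours treated means on the control side of the siRNA mean. The same counts over all called genes were not computed, so these positions are descriptions only.

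**Figure D4:**
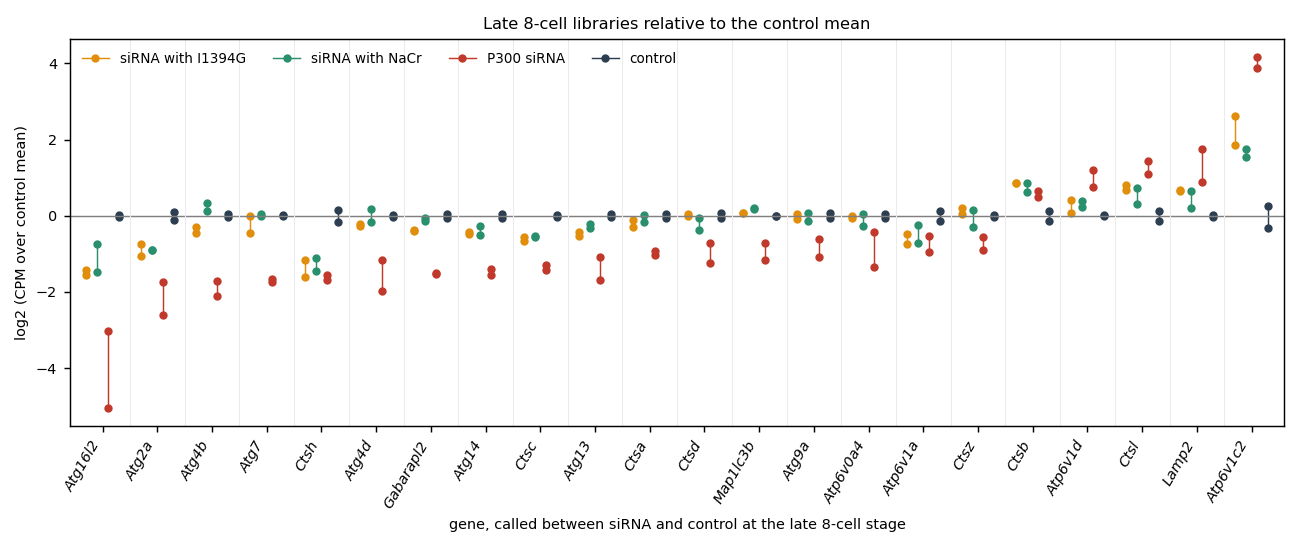
Log2 CPM relative to the control mean at the late 8-cell stage for 22 genes called between siRNA and control, with a point per library for I1394G, NaCr, siRNA and control embryos; Ctsj is left out because its control value is 0. For Atg4b, Gabarapl2 and Atg7 the treated points lie close to control and far above siRNA, whereas for Ctsh they stay near siRNA and for Ctsb above it.

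In the Lamp, cathepsin, Atg8, a-subunit and Atg4 families the shares of single genes in the summed FPKM were set side by side. Of the summed Lamp1 and Lamp2 FPKM at the late 8-cell stage, Lamp2 made up 37.0 to 47.0% in I1394G, 31.1 to 37.5% in NaCr, 48.0 to 59.2% in siRNA and 24.3 to 27.8% in control libraries. In control embryos of the earlier stages it had been 66.6 to 69.4% at the late 2-cell, 62.1 to 65.5% at the 4-cell and 85.5% at the early 8-cell stage. Among cathepsins Ctsl held 18.8 to 19.4% in I1394G, 17.3 to 18.6% in NaCr, 32.7 to 41.7% in siRNA and 11.5 to 13.3% in control libraries at the late 8-cell stage. Its control shares at the 3 earlier stages were 29.7 to 30.6%, 26.5 to 30.6% and 28.9%. The siRNA shares of late 8-cell libraries did not overlap the control shares in either gene. The Lamp2 share of siRNA libraries lay below those of the earlier controls, and the Ctsl share above them. Gabarapl2 held 41.2 to 50.9% of the Atg8 FPKM in late 8-cell siRNA and 57.9 to 60.5% in late 8-cell control libraries.

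The a subunits of V0, which form the proton path and set where the pump goes in the cell, differed in share between stages. Atp6v0a2 held 63.4 to 66.2% of the a-subunit FPKM in late 2-cell controls, 13.2 to 14.6% in 4-cell, 13.5% in early 8-cell and 10.9 to 11.6% in late 8-cell controls. Atp6v0a4, known from the kidney, held 18.0 to 19.5%, 51.0 to 52.7%, 52.1% and 67.6 to 71.2% at the same stages. Among late 8-cell libraries the Atp6v0a4 share was 65.4 to 65.5% in I1394G, 61.5 to 69.0% in NaCr and 40.9 to 51.7% in siRNA libraries, lower in siRNA than in any other late 8-cell library. Of the Atg4 protease FPKM, Atg4b held 65.9 to 75.5% in siRNA and 88.6 to 89.5% in control libraries at that stage, and Atg4a 17.1 to 27.3% in siRNA and 4.52 to 5.38% in control libraries. Shares within a family were given as descriptions and were not tested.

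**Figure D5:**
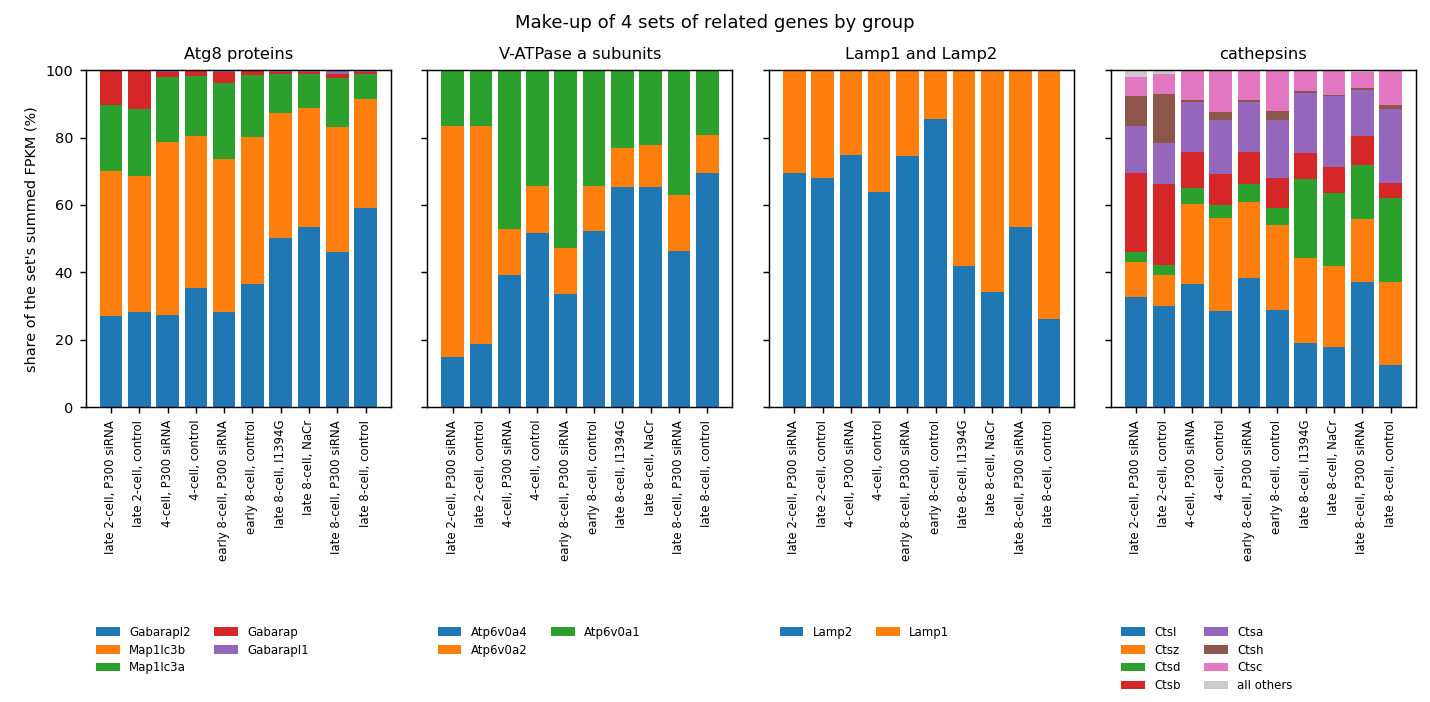
Share in percent of the summed FPKM of each family held by each gene, as the mean over the libraries of each of 10 groups, for the Atg8 genes, the a subunits of V0, the Lamp genes and the cathepsins; early 8-cell control is 1 library. Atp6v0a2 gives way to Atp6v0a4 and Atp6v0a1 after the late 2-cell stage, and the Lamp2 and Ctsl shares are higher in siRNA than in control embryos at the late 8-cell stage.

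Other genes of the pathway, taken from lists outside the symbol rule, were read in the same fits. None passed at the late 2-cell stage, and the shares of all genes called at the 3 later stages were 15.0%, 16.5% and 28.0%. Of all genes with a mean of at least 10 CPM, 20.5%, 23.4% and 37.9% were called at these stages. Higher were 9.15%, 9.88% and 12.5% of them, and lower were 11.4%, 13.5% and 25.4%. The lists were not limited to genes at that level. Of 27 genes of autophagy initiation and cargo receptors, 2 rose and 6 fell at the 4-cell stage, 1 rose and 9 fell at the early 8-cell stage, and 2 rose and 8 fell at the late 8-cell stage, or 29.6%, 37.0% and 37.0% of the list, with median log2 fold changes of -0.51, -0.54 and -0.31 at these stages. Sqstm1, the cargo receptor p62, rose at the 4-cell (1.18 ± 0.20, adjusted p = 0.000905) and early 8-cell stage (1.01 ± 0.19, adjusted p = 0.00177), with 293 and 262 CPM in siRNA and 141 and 134 CPM in control libraries at the early 8-cell stage. Ulk1, the initiating kinase, fell at the 4-cell stage (-1.54 ± 0.26, adjusted p = 0.00123), Bnip3l, a mitophagy receptor, at the early 8-cell stage (-1.22 ± 0.18) and Wdr45, a lipid-binding autophagy protein, at the late 8-cell stage (-1.20 ± 0.23). Wdfy3, a scaffold for aggregates, rose at the late 8-cell stage (1.40 ± 0.36). Of 19 genes of vesicle fusion, 1 rose and 2 fell at the 4-cell stage, 0 rose and 2 fell at the early 8-cell stage, and 1 rose and 4 fell at the late 8-cell stage, or 15.8%, 10.5% and 26.3% of the list, with medians of -0.22, 0.06 and -0.40. They included the SNARE gene Snap29, which fell at the 4-cell (-1.23 ± 0.26) and early 8-cell stage (-0.95 ± 0.26), and Pikfyve (1.15 ± 0.26) and its partner Fig4 (-1.31 ± 0.30), which moved apart at the late 8-cell stage.

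Of 35 lysosomal hydrolases and activators other than cathepsins, 3 rose and 8 fell at the 4-cell stage, 5 rose and 8 fell at the early 8-cell stage, and 3 rose and 12 fell at the late 8-cell stage, or 31.4%, 37.1% and 42.9% of the list, with medians of -0.11, -0.35 and -0.31. Gm2a, the activator of ganglioside breakdown, fell at the 4-cell (-1.42 ± 0.30) and early 8-cell stage (-2.28 ± 0.30), while Gusb, β-glucuronidase, rose at the 4-cell stage (2.78 ± 0.39) and Ppt1, a thioesterase, at the early 8-cell stage (2.71 ± 0.33). Smpd1, acid sphingomyelinase, had at the late 8-cell stage 125 and 110.2 CPM in I1394G and 129.7 and 216 CPM in NaCr embryos, 22.3 and 27.9 in siRNA and 201 and 225 in control embryos (-3.07 ± 0.42, adjusted p = 6.13e-05, for siRNA over control). It was higher than in siRNA embryos in both treated groups (2.21 ± 0.41 in I1394G, 2.77 ± 0.42 in NaCr). Manba, β-mannosidase, rose (3.87 ± 0.91). Of 25 membrane and sorting genes, 2 rose and 3 fell at the 4-cell stage, 3 rose and 4 fell at the early 8-cell stage, and 2 rose and 6 fell at the late 8-cell stage, or 20%, 28.0% and 32.0% of the list, with medians of 0.12, 0.03 and -0.37. Late, the cholesterol carrier gene Npc2 fell (-1.34 ± 0.20) and the sorting receptor gene Sort1 rose (3.87 ± 0.65).

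Of 30 genes of mTORC1 signalling at the lysosome and of the TFEB family, 2 rose and 0 fell at the 4-cell stage, 2 rose and 2 fell at the early 8-cell stage, and 6 rose and 5 fell at the late 8-cell stage, or 6.67%, 13.3% and 36.7% of the list, with medians of 0.19, 0.22 and 0.08. Tfeb, the regulator whose motif was searched above, had 2.0 and 0.918 CPM in siRNA and 27.2 and 34.8 CPM in control libraries at the early 8-cell stage (-4.38 ± 0.81, adjusted p = 0.00124). Rraga, a Rag GTPase that brings mTORC1 to the lysosome, rose at the 4-cell (1.27 ± 0.29) and early 8-cell stage (1.52 ± 0.29). At the late 8-cell stage its relative Rragd had 20.2 and 21.5 CPM in siRNA and 186 and 214 CPM in control libraries (-3.26 ± 0.45, adjusted p = 6.94e-05), and Depdc5, an inhibitor of the pathway, rose (2.09 ± 0.33). Of 11 genes of pump assembly, 1 rose and 1 fell at the 4-cell stage, 1 rose at the early 8-cell stage, and 3 rose and 1 fell at the late 8-cell stage, or 18.2%, 9.09% and 36.4% of the list, with medians of 0.54, 0.21 and 0.67. Among them Dmxl2, which helps to assemble the pump, rose with siRNA at the late 8-cell stage (1.05 ± 0.26) and was lower than in siRNA embryos in I1394G (-1.93 ± 0.27, adjusted p = 0.000599) and NaCr embryos (-1.96 ± 0.28, adjusted p = 0.000266). In I1394G over siRNA 10.8% of all genes passed, and 18.8% of those with a mean of at least 10 CPM. There 5 initiation genes rose and 0 fell (18.5% of the list), and 1 fusion gene rose and 1 fell (10.5%). Of the hydrolases 6 rose and 0 fell (17.1%), and of the membrane and sorting genes 4 rose and 2 fell (24%). Of the mTORC1 and TFEB genes 3 rose and 5 fell (26.7%), and of the pump assembly genes 0 rose and 3 fell (27.3%). In NaCr over siRNA 15.3% of all genes passed, and 25.9% of those with a mean of at least 10 CPM. There 7 initiation genes rose and 2 fell (33.3% of the list), and 2 fusion genes rose and 1 fell (15.8%). Of the hydrolases 6 rose and 1 fell (20%), and of the membrane and sorting genes 5 rose and 1 fell (24%). Of the mTORC1 and TFEB genes 3 rose and 5 fell (26.7%), and of the pump assembly genes 0 rose and 3 fell (27.3%). Against genes at that level, fusion genes and hydrolases were called less often in both treated groups. The mTORC1 and TFEB genes and the pump assembly genes were called more often in both, and the other lists differed between the groups. Differences between these shares were not tested.

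Read against the promoter motif, among genes both tested and present in the promoter table, 5 of 13 with CACGTG and 10 of 32 without it passed at the 4-cell stage with siRNA. The counts were 5 of 13 with and 14 of 32 without it at the early 8-cell stage, and 6 of 13 with and 15 of 32 without it at the late 8-cell stage. Genes with the motif were found among those that fell (Atg3, Atg7, Ctsa, Ctsd) and among those that rose (Atp6v0b, Ctsl), and Lamp1, whose window held 4 copies, passed at no stage.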

How the data were processed

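The study measured RNA of mouse preimplantation embryos in 20 Smart-seq2 libraries, 2 in each of 10 groups, which were assigned from the sample titles. The authors deposited a table of raw counts per gene and a table of FPKM, both listed by gene symbol. Per the submitters' processing notes, the tools included HISAT2 2.2.1 and Cufflinks 2.2, with cutadapt 4.1 and bcl2fastq 2.20.0.422 also listed, and the build was mm9. Whether counting used strand is not given in the sources used here, so reads of overlapping genes could not be told apart. Of the value columns 0 were left unmatched. The FPKM column of control early 8-cell replicate 2 did not follow its count column (SD of log2 FPKM over CPM 1.20, against at most 0.122 in the other libraries), so tests used counts.

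The counts were fitted with edgeR 4.0.16 under R 4.3.3, using its default low-count filter, TMM factors, 1 coefficient per group over all 20 libraries, 10 residual degrees of freedom, and quasi-likelihood F tests, two-sided, with Benjamini-Hochberg adjustment over 16603 genes. Genes passed where the adjusted p was under 0.05. Standard errors are the absolute log2 fold change divided by the root of the F statistic. CPM were computed here from TMM-scaled library sizes and are not comparable between genes, while FPKM were compared between genes. The 11 genes of the set that failed the filter had at most 10 counts in any library. Fold bounds against a group at 0 use 3 counts over the group and cover counting error only. Alternatives were DESeq2 1.42.0, DESeq2 size factors within edgeR, no filter, limma 3.58.1 on log2(FPKM + 1) and log2(FPKM + 0.1) for genes with an FPKM of at least 1 in 2 libraries, a replicate block, fits to the libraries compared alone, and each library left out in turn, where a lone sample is assumed to vary like the other groups. The fit was tested on simulated data.

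The symbol rule, the pathway and marker lists and the tests were chosen with earlier results of these data known. In each comparison the text gives up to 12 called genes with the smallest adjusted p and at least 10 CPM in the higher group, the most abundant gene of each family, and from each pathway list the called gene with the smallest adjusted p in each direction; other called genes of the set may stand beside them. Promoter sequences and motif counts come from RefSeq on GRCm38.p6, not from the build of the files.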

Additional observations from a re-analysis of the deposited data

Results flagged for a closer look

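The siRNA effect differed between the 4 stages for 25 of the 56 genes in edgeR's joint test, and this difference is what marks them for a closer look. Among the Atg genes the adjusted p-values were 0.000728 for Atg14, 0.00197 for Atg2a, 0.00319 for Atg4b, 0.00410 for Atg3, 0.00805 for Atg9a, 0.0148 for Atg7, 0.0203 for Atg16l2, 0.0216 for Atg13 and 0.0306 for Atg4d. All 9 of these were lower in siRNA embryos at 1 or more of the later stages and called at none higher. For the Atg8 genes they were 0.00341 for Gabarapl2 and 0.0176 for Map1lc3b. For V1 subunits they were 0.00145 for Atp6v1c2, 0.00414 for Atp6v1d, 0.00838 for Atp6v1g1 and 0.0127 for Atp6v1f, and for V0 subunits 0.00145 for Atp6v0b, 0.0215 for Atp6v0e and 0.0259 for Atp6v0e2. For cathepsins they were 0.00587 for Ctsc, 0.00595 for Ctsh, 0.00685 for Ctsa, 0.00727 for Ctsl, 0.0175 for Ctsb and 0.0368 for Ctsz, and for Lamp2 0.0243. Atp6v1d and Ctsb were called in opposite directions at the early and late 8-cell stages. The 2 early calls and the late call of Ctsb were each lost with single libraries left out. With 1 library left out, 13 of the 25 joint calls were kept in all 16 fits. Ctsz and Atg4d were lost in 6 (adjusted p = 0.0803 to 0.144 and 0.0522 to 0.106), Atg13 in 5 (0.0567 to 0.128), Lamp2 in 5 (0.0542 to 0.0896), Atp6v0e2 in 4 (0.0510 to 0.0631), and Atp6v0e (0.0557 to 0.0983), Atg16l2 (0.0636 to 0.0741) and Atg7 (0.0543 to 0.0605) in 3. Map1lc3b (0.0846 and 0.0870) and Ctsb (0.0511 and 0.0871) were lost in 2 fits, Atp6v1f without siRNA late 2-cell replicate 2 (0.0544) and Ctsl without control late 8-cell replicate 2 (0.0631).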

How the results depend on the processing

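Every called gene of the set was followed, 199 calls over all comparisons with 2559 alternative values, of which 2097 kept the call, 459 kept the direction without the call and 3 turned the direction. The sign of Atp6v0e2 at the 4-cell stage turned without siRNA replicate 2 (-2.90, with 7.57 the highest of such fits), and that of Ctsb at the early 8-cell stage with limma on log2(FPKM + 1) (0.0224) and log2(FPKM + 0.1) (0.0226). DESeq2 kept 195 calls, DESeq2 size factors within edgeR 194, no filter 194, fits to the libraries compared alone 156 of 197, and limma on log2(FPKM + 1) and log2(FPKM + 0.1) 112 and 108 of 196. Genes of the pathway lists were not followed in this way. For 68 results not called there were 776 alternative values, of which 35 passed. Counts that moved by over 1.5 times were as follows. With limma on log2(FPKM + 1), siRNA against control gave 2 at the late 2-cell, 11 at the 4-cell and 0 at the early 8-cell stage (11 with the mismatched FPKM column left out, a choice made after seeing the data), the joint stage test 13, I1394G against control 2 and NaCr against control 0. With log2(FPKM + 0.1) the 4-cell count was 10, the early 8-cell count 0, the joint count 8, I1394G against siRNA 7, I1394G against control 2 and NaCr against control 0. Fits to the libraries compared alone gave 5 at the late 2-cell and 0 at the 4-cell stage, 20 for I1394G against control and 14 for NaCr against control. Without a filter I1394G against control gave 7, and DESeq2 gave 5 for NaCr against control. The cause of these shifts was not tested. DESeq2 size factors moved the median log2 fold change of all genes from 0.06 to 0.20 for siRNA over control at the late 8-cell stage and from -0.40 to -0.65 for 4-cell over late 2-cell controls, where 32 genes of the set were then higher and 6 lower.

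With 1 library left out at a time, siRNA against control gave 0 to 0 calls at the late 2-cell, 11 to 15 at the 4-cell, 15 to 20 at the early 8-cell and 17 to 22 at the late 8-cell stage, and 15 to 29 in the joint test. I1394G against siRNA gave 5 to 17, NaCr against siRNA 11 to 19, I1394G against control 0 to 1, NaCr against control 0 to 0 and I1394G against NaCr 0 to 0. Among controls the counts were 37 to 40 for 4-cell over late 2-cell, 0 to 1 for early 8-cell over 4-cell and 24 to 28 for late over early 8-cell. Deviations of same-numbered libraries from their group means correlated at r = -0.0957 to 0.431 over pairs of groups (0.225 for siRNA and control at the 4-cell stage, 0.0215 to 0.0923 at the other stages). The labels tie the numbers to nothing shared, so they were not taken to pair the samples. With the replicate block 17 genes were called at the 4-cell, 22 at the early and 22 at the late 8-cell stage and 17 for I1394G against siRNA, and the calls of Ctsl in I1394G against control and of Ctsj in siRNA against control at the late 8-cell stage were lost (adjusted p = 0.0524 for each). With 2 libraries a group, and 3.2 M counts in siRNA late 8-cell replicate 1, a gene without a call may still have changed.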

Other observations

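A few members of the set sat near the limit of detection. Atp6v0c, which encodes the main ring subunit of V0 and has pseudogene copies that can share its reads, lay at 0.359 to 2.86 CPM over the 20 libraries, and its level is uncertain for that reason. Ctss, a cathepsin of antigen-presenting cells, had 14 counts in I1394G, 7 in NaCr, 12 in siRNA and 0 in control libraries at the late 8-cell stage, and it was called in none of the comparisons there. Atp6v0d2, known from osteoclasts, had counts in late 2-cell embryos and 0 in every later group. Atp6v0e2 had 183 counts in late and 0 in early 8-cell controls, at least 34.8-fold higher late, so that the siRNA embryos, with 101 counts at the early 8-cell stage, held it where controls did not.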
